A study of Mus musculus with 6 samples.

Results

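A set of 8 genes that mark neutrophils was followed through 6 RNA sequencing libraries of sorted satellite cells, from which injured muscle regrows its fibres. They were chosen by name as S100a8, S100a9, Hdc, Mxd1, Csf3r, Il1r2, Trem1 and Clec4d, which makes 8 of the 54123 annotated genes, and all 8 passed the filter for low counts. The names were picked with earlier results of these libraries known. The cells came from adult C57BL/6 mice whose tibialis anterior and gastrocnemius had been injected with cardiotoxin, a toxin that destroys muscle fibres, and they were collected by fluorescence sorting 30 h after the injury. There were 2 libraries of Jmjd3 KO cells, 2 of Utx KO cells and 2 of Tdt control cells, and the injury was common to all 3 genotypes. JMJD3 (gene Kdm6b) and UTX (gene Kdm6a) are enzymes that remove methyl groups from lysine 27 of histone H3. The title of the series calls the control cells wild type, and the labels give neither the driver of the deletions nor the gate of the sort nor the number of animals behind a library.

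Neutrophils are short-lived white blood cells made in the bone marrow that reach damaged muscle within hours, ahead of most macrophages. They release granule proteins and inflammatory signals and take up debris. Their granule enzymes are transcribed while the cells mature in the marrow, whereas the transcripts of S100a8 and S100a9 are abundant in the circulating cell. A sort of satellite cells is meant to leave them out, and the source of these reads was not tested. In bulk libraries, more cells of a type and more RNA per cell cannot be told apart. Several of the 8 genes are not restricted to neutrophils: Csf3r, Il1r2, Trem1 and Clec4d are also transcribed in monocytes, Hdc in mast cells and basophils, and Mxd1 in many cell types.

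The start regions of 4 of the genes are shown because these genes set the limits of the pattern described further on: the paired S100a8 and S100a9, Hdc with the highest knockout folds, and Trem1, which departed from the rest. They are the 250 bases before and 50 bases after the RefSeq transcription start in GRCm38.p6, 5′ to 3′ on the strand of the gene. Capitals mark letters matching GAGGAAG (the core bound by the myeloid factor PU.1) or TTGCNNAA (a C/EBP-type site) on either strand.
S100a8 at chr3:90668821-90669120, plus strand: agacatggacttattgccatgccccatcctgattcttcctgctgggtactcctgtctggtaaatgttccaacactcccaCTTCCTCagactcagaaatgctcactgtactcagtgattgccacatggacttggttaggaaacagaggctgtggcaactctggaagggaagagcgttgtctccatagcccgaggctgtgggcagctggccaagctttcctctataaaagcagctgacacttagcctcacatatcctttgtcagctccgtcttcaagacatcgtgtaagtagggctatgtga
S100a9 at chr3:90695672-90695971, minus strand: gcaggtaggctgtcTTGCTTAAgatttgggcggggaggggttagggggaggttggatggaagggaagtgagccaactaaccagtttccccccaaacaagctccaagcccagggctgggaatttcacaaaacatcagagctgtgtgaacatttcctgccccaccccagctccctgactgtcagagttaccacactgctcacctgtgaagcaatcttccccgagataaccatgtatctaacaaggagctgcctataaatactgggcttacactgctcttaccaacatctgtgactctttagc
Hdc at chr2:126618629-126618928, minus strand: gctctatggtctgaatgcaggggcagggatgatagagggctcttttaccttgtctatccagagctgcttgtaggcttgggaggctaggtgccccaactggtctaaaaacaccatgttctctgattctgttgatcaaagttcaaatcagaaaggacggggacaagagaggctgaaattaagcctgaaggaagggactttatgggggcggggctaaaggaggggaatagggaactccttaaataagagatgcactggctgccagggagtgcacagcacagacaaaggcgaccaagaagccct
Trem1 at chr17:48232489-48232788, plus strand: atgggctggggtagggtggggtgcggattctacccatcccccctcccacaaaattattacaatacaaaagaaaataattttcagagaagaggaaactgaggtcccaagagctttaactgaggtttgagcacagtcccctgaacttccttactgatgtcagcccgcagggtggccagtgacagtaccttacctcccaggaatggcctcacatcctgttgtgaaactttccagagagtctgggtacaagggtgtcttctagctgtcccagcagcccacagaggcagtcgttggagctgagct
All 8 genes had a RefSeq window of this kind. GAGGAAG was found in those of S100a8, Csf3r and Clec4d, 3 of 8, and in 13.6% of 32851 windows. TTGCNNAA was found in that of S100a9, 1 of 8, and in 10.8% of all windows. TGANTCA, an AP-1-type site, was found in 0 of 8 and in 7.81% of all windows. The motifs did not overlap each other in these windows, and a match of letters describes the sequence only.

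Library totals ran from 53750675 to 77675388 estimated reads, and 17084 genes were tested. Each member had from 762 to 4616 reads in a library. Kdm6a stood at 413 and 434 reads in Utx KO against 2496 and 2237 in Tdt control (log2 fold change -2.15 ± 0.06, adjusted p = 1.02e-05). Kdm6b stood at 1044 and 1067 reads in Jmjd3 KO against 2269 and 1497 in Tdt control (-0.70 ± 0.12, adjusted p = 0.0243). The counts of Kdm6b may include reads of the overlapping gene Kdm6bos. Satellite cell markers such as Pax7, Myod1 and Des were present in every library. Their sum over 8 genes was 4028 and 4106 CPM (reads scaled to a common normalised library total) in Jmjd3 KO, 3828 and 3896 CPM in Utx KO, and 3813 and 3841 CPM in Tdt control. Single markers differed more than the sum. Against Tdt control edgeR called 1 of the 8 higher and 1 lower in each knockout. Over all genes it called 1.97% higher and 1.03% lower in Jmjd3 KO, and 0.79% and 0.925% in Utx KO. Des was higher in Jmjd3 KO (0.35 ± 0.04, adjusted p = 0.0045). Myod1 was lower in Jmjd3 KO (-0.22 ± 0.04, adjusted p = 0.0336) and in Utx KO (-0.22 ± 0.04, adjusted p = 0.0461). The surface marker gene Ly6g had 2 and 2 reads in Jmjd3 KO, 5 and 1 in Utx KO, and 0 and 2 in Tdt control. The primary granule enzyme gene Mpo had at most 3 reads in a library and Elane, the gene of neutrophil elastase, was at 0 in all 6. Receptor genes of circulating neutrophils were readily counted, with Cxcr2, the receptor for neutrophil-attracting chemokines, at 448 to 716 reads. Granule genes differed among themselves, since Lcn2, the gene of lipocalin 2, had 370 to 801 reads and Mmp9, the gene of a matrix protease, 873 to 1849. Defining markers of the label were thus present in part, with Ly6g, Mpo and Elane at or near 0.

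Per length, the 2 most abundant members were the genes of the calcium-binding proteins S100A8 and S100A9, which pair as calprotectin. S100a8 (ENSMUSG00000056054.9) lies on chromosome 3 at 90668978 to 90670035 and S100a9 (ENSMUSG00000056071.12) at 90692632 to 90695721, 22596 bases apart in GRCm38. On that scale the mean level of S100a8 was 84.3 TPM in Jmjd3 KO, 74.5 TPM in Utx KO and 46.2 TPM in Tdt control. That of S100a9 was 76.5 TPM in Jmjd3 KO, 59.2 TPM in Utx KO and 36.9 TPM in Tdt control. Il1r2 (chromosome 1, 40074079 to 40125231) came next with 24.1 TPM in Jmjd3 KO, 16.3 TPM in Utx KO and 12.2 TPM in Tdt control, and Clec4d (chromosome 6, 123262111 to 123275265) had 13.9 TPM in Jmjd3 KO, 10.4 TPM in Utx KO and 7.76 TPM in Tdt control. Hdc (chromosome 2, 126593667 to 126619299), Mxd1 (chromosome 6, 86647042 to 86669161), Csf3r (chromosome 4, 126024550 to 126044440) and Trem1 (chromosome 17, 48232768 to 48246924) had mean levels between 2.98 and 8.80 TPM. Within a genotype the order of these last 4 was not the same: Trem1 was the highest of them in Tdt control, at 4.25 TPM, and the lowest in Utx KO, at 3.44 TPM. The annotation places other genes over Mxd1, Il1r2 and Trem1, each with a mean of at most 0.615 CPM. At least 84.6% of a member's reads in each library were assigned to transcripts annotated as protein coding.

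**Figure D1:**
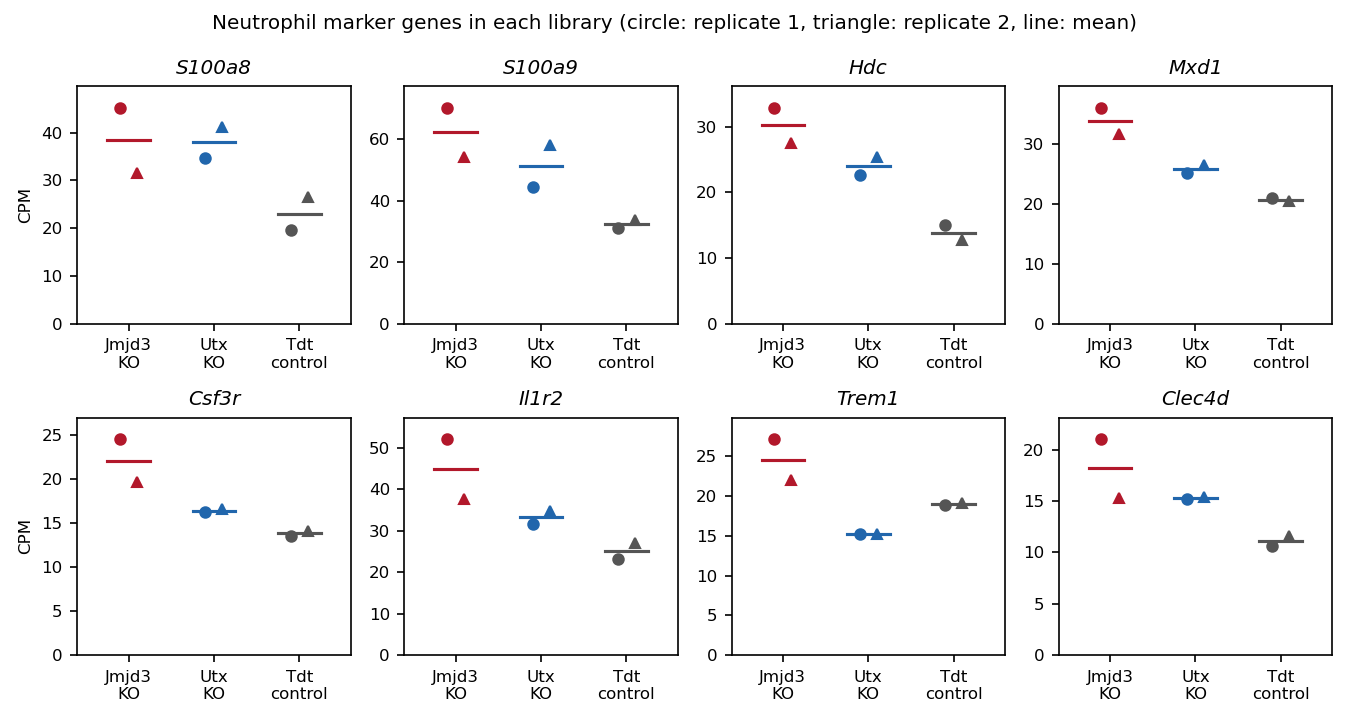
CPM of the 8 neutrophil marker genes in each library, with a panel per gene, genotypes on the horizontal axis, circles for replicate 1, triangles for replicate 2 and lines at the means. In Jmjd3 KO both libraries lay above both Tdt control libraries in all 8 panels, and in Utx KO the Trem1 points, at 15.25 and 15.27 CPM, lay below the control.

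In Jmjd3 KO, 6 of the 8 members rose over Tdt control by edgeR's quasi-likelihood test with Benjamini-Hochberg adjustment, and both Jmjd3 KO libraries lay above both control libraries for all 8. Of all 17084 genes, 1.97% were called higher in this comparison, 1.03% lower and 3.0% in either direction. Both Jmjd3 KO libraries lay above both controls for 26.2% of all genes and below them for 25.5%. The members' median log2 fold change was 0.72, a fold of 1.65, against -0.0047 over all genes. S100a9 had 70.3 and 54.3 CPM in Jmjd3 KO against 31.0 and 33.6 CPM in Tdt control, a log2 fold change of 0.95 ± 0.15 (SE, 2 libraries per genotype, adjusted p = 0.0207). S100a8 had 45.2 and 31.5 CPM in Jmjd3 KO against 19.6 and 26.4 CPM in Tdt control and did not pass (0.74 ± 0.19, 95% interval 0.30 to 1.18, adjusted p = 0.0844). The groups did not overlap for either gene.

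Hdc, which encodes histidine decarboxylase, the enzyme that makes histamine, showed the largest rise among the members in Jmjd3 KO. It had 32.9 and 27.5 CPM in Jmjd3 KO against 14.95 and 12.8 CPM in Tdt control, a 2.17-fold difference (log2 fold change 1.12 ± 0.11, adjusted p = 0.00368). Mxd1, which encodes a MAX-binding repressor that opposes MYC, had 36.2 and 31.7 CPM in Jmjd3 KO against 20.99 and 20.5 CPM in Tdt control (0.71 ± 0.07, adjusted p = 0.00369). In both genes the lower Jmjd3 KO library was above the higher control. Hdc and Mxd1 were the 2 members that kept their calls with any single library left out.

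Among the receptors, Il1r2, the decoy receptor that binds interleukin-1 without signalling, had 52.1 and 37.6 CPM in Jmjd3 KO against 23.2 and 27.1 CPM in Tdt control (0.84 ± 0.15, adjusted p = 0.0290). Csf3r, the receptor for granulocyte colony-stimulating factor, had 24.6 and 19.7 CPM in Jmjd3 KO against 13.5 and 14.1 CPM in Tdt control (0.68 ± 0.10, adjusted p = 0.0180). Clec4d, a C-type lectin receptor of myeloid cells, had 21.0 and 15.3 CPM in Jmjd3 KO against 10.6 and 11.6 CPM in Tdt control (0.71 ± 0.14, adjusted p = 0.0392). These 3 rose with separated groups, and in each the first Jmjd3 KO library was the highest of the 6. Clec4d lost its call under 7 of 14 alternatives, among them the 4 compared libraries alone (adjusted p = 0.0618) and the loss of either Utx KO library from the shared fit (0.0664 and 0.0671). Trem1, an activating receptor that amplifies inflammatory responses of neutrophils and monocytes, had 27.2 and 21.97 CPM in Jmjd3 KO against 18.9 and 19.1 CPM in Tdt control. Its log2 fold change of 0.37 ± 0.09 was the smallest of the 8 and did not pass (95% interval 0.15 to 0.59, adjusted p = 0.0830). Without Jmjd3 KO replicate 1, without Tdt control replicate 1 or without Tdt control replicate 2, 2 of the 8 were called, and without Jmjd3 KO replicate 2, 7 were.

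In Utx KO, Hdc was the 1 member of 8 that rose over Tdt control, beside 0.79% of all genes called higher, 0.925% called lower and 1.72% in either direction. At an unadjusted p under 0.05, 7 members were higher and 1 lower, beside 7.66% of all genes higher and 8.54% lower at that threshold. Hdc had 22.6 and 25.4 CPM in Utx KO against 14.95 and 12.8 CPM in Tdt control (log2 fold change 0.79 ± 0.11, adjusted p = 0.0239). Both Utx KO libraries lay above both controls for 7 members, an order found for 22.3% of all genes, and below them for 1, an order found for 23.3%. S100a9 had 44.3 and 58.0 CPM in Utx KO against 31.0 and 33.6 CPM in Tdt control, and S100a8 had 34.8 and 41.2 CPM in Utx KO against 19.6 and 26.4 CPM in Tdt control. The log2 fold change was 0.66 ± 0.15 for S100a9 (95% interval 0.32 to 1.01, adjusted p = 0.0866) and 0.72 ± 0.19 for S100a8 (0.28 to 1.17, adjusted p = 0.123). Neither passed, and neither interval reached 0. Hdc lost its call without each of the 2 Utx KO and each of the 2 Tdt control libraries (adjusted p from 0.0675 to 0.106).

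The other members had smaller differences in Utx KO. Clec4d had 15.1 and 15.4 CPM in Utx KO against 10.6 and 11.6 CPM in Tdt control (0.46 ± 0.14, adjusted p = 0.164), and Il1r2 had 31.7 and 34.8 CPM in Utx KO against 23.2 and 27.1 CPM in Tdt control (0.40 ± 0.15, adjusted p = 0.237). Mxd1 differed by 0.32 ± 0.07 (adjusted p = 0.0817) and Csf3r by 0.25 ± 0.10 (adjusted p = 0.296). Trem1 alone pointed the other way, with 15.25 and 15.27 CPM in Utx KO against 18.9 and 19.1 CPM in Tdt control. Its log2 fold change was -0.32 ± 0.10 (95% interval -0.54 to -0.09, adjusted p = 0.166), which did not pass although the groups did not overlap. The comparison with Jmjd3 KO used the same control libraries, so the 2 sets of fold changes are not independent.

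Set directly against Utx KO, Jmjd3 KO had higher Trem1, Mxd1 and Csf3r, 3 of the 8 members, beside 5.13% of all genes called higher, 2.89% called lower and 8.02% in either direction. The groups were apart for 5 members, all higher in Jmjd3 KO, an order found for 28.6% of all genes, with 28.6% the other way. Trem1 differed most, at 27.2 and 21.97 CPM in Jmjd3 KO against 15.25 and 15.27 CPM in Utx KO (log2 fold change 0.69 ± 0.10, adjusted p = 0.00820). Mxd1 had 36.2 and 31.7 CPM in Jmjd3 KO against 25.3 and 26.6 CPM in Utx KO (0.39 ± 0.07, adjusted p = 0.0189), and Csf3r had 24.6 and 19.7 CPM in Jmjd3 KO against 16.2 and 16.6 CPM in Utx KO (0.43 ± 0.10, adjusted p = 0.0445). Csf3r lost its call under 8 of 14 alternatives, among them the 4 compared libraries alone (adjusted p = 0.0546), length offsets (0.198) and the loss of either Tdt control library (0.0631 and 0.0613). S100a8 differed between the knockouts by 0.01 ± 0.19, with a 95% interval of -0.42 to 0.45 (adjusted p = 0.974). The knockout groups overlapped for S100a8, S100a9 and Clec4d, and the 95% interval was -0.06 to 0.63 for S100a9 and -0.06 to 0.57 for Clec4d. Of the 3 calls, 1 was left without Jmjd3 KO replicate 1 and 1 without Utx KO replicate 2. Without Utx KO replicate 1 edgeR called 0 members, 3 being at an unadjusted p under 0.05, and Trem1 had an adjusted p of 0.0602.

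**Figure D2:**
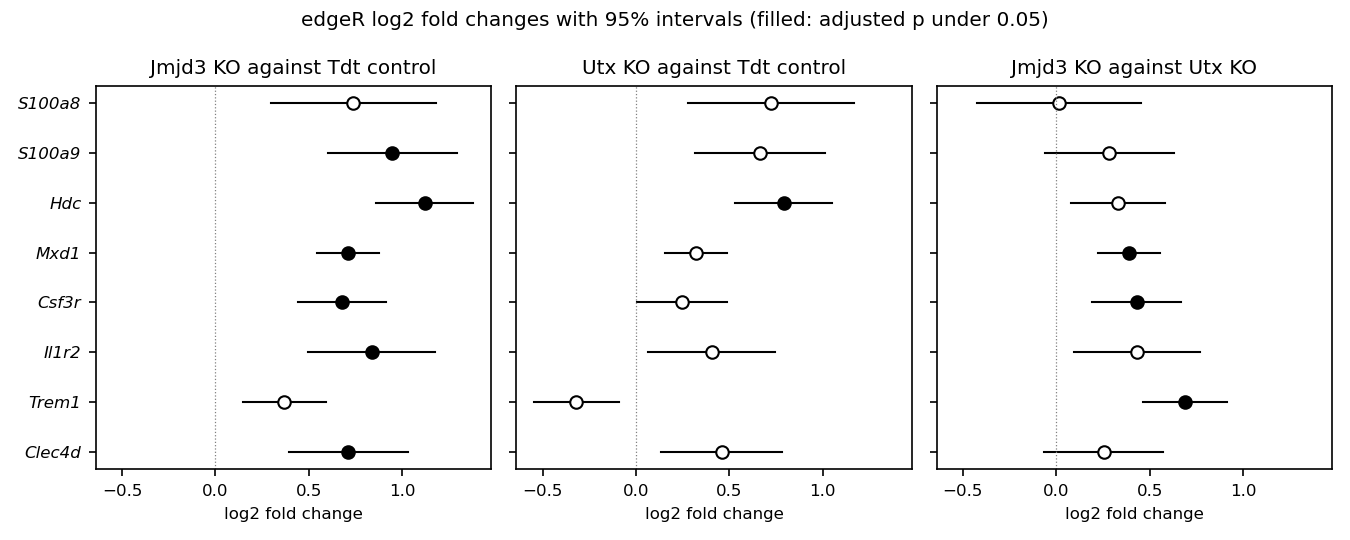
log2 fold changes of the 8 genes from edgeR in the 3 comparisons, with 95% intervals as lines and filled points for an adjusted p under 0.05. In Jmjd3 KO against Tdt control all 8 points lie to the right of 0, in Utx KO against Tdt control Trem1 lies to the left at -0.32, and the direct comparison has its largest value at Trem1, 0.69.

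A single admixed cell population would raise its transcripts by a common factor in each library and keep them in fixed ratios only if no other cell there transcribed them. Several of the members are also transcribed in other cell types, where that condition does not hold, and the source of their reads was not tested. The members moved together in part. Divided by the Tdt control mean, the median of the 8 genes was 1.93 and 1.46 in Jmjd3 KO, 1.31 and 1.38 in Utx KO, and 0.969 and 1.03 in Tdt control. Around the median of 1.93 in Jmjd3 KO replicate 1, the members ran from 1.43 for Trem1 to 2.37 for Hdc. In Utx KO replicate 2 they ran from 0.802 for Trem1 to 1.83 for Hdc, a wide spread around a median of 1.38.

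Libraries of the same genotype also differed in a shared way. Jmjd3 KO replicate 1 was above replicate 2 for 8 of 8 members, by 1.14 to 1.44 times with a median of 1.27. Among 3830 tested genes with a mean level within the members' range, the same ratio had a median of 1.01 and a 95th percentile of 1.13. Every member thus lay above that percentile. In Utx KO, replicate 2 was above replicate 1 for 8 of 8 members, by 1.00 to 1.31 times, but the median of 1.08 lay inside the range of genes of like level (95th percentile 1.16). In Tdt control, replicate 2 was above replicate 1 for 6 of 8, while Hdc and Mxd1 had the opposite order.

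**Figure D3:**
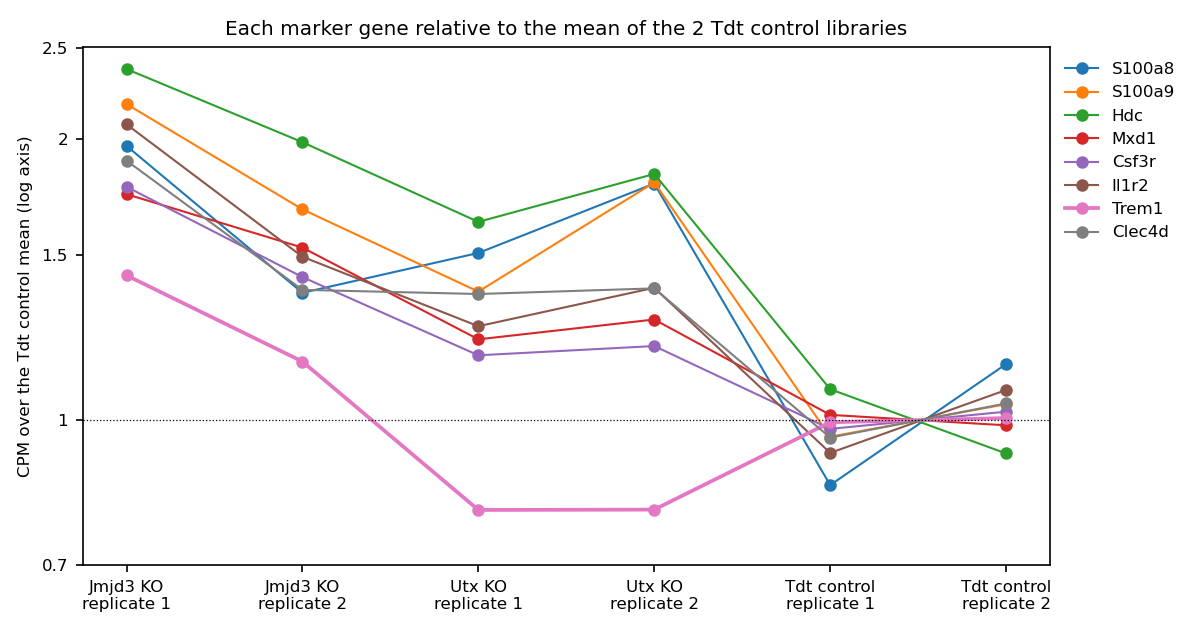
CPM of each gene in each library divided by its mean over the 2 Tdt control libraries, on a log axis, with a line joining the 6 libraries for each gene. In Jmjd3 KO replicate 1 the lines lie between 1.43 and 2.37, and in Utx KO the Trem1 line lies at 0.802 while the others lie above 1.

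Ratios to the reads of S100a8 plus S100a9 showed which members kept step with that pair. The S100a8 to S100a9 ratio itself was 0.643 and 0.580 in Jmjd3 KO, 0.784 and 0.711 in Utx KO, and 0.633 and 0.787 in Tdt control. Its genotypes overlapped, and the highest library was 1.36 times the lowest. Il1r2 held its ratio closest, at 0.451 and 0.438 reads per read of the pair in Jmjd3 KO, 0.401 and 0.351 in Utx KO, and 0.458 and 0.451 in Tdt control. That was a range of 1.31 times, against 1.06 times on average between libraries of the same genotype. The Il1r2 genotypes did not overlap, with Utx KO lowest and Jmjd3 KO just below Tdt control. Clec4d ranged over 1.36 times, with both control libraries above all knockout libraries. Hdc ranged over 1.51 times, at 0.285 and 0.320 in Jmjd3 KO, 0.286 and 0.256 in Utx KO, and 0.295 and 0.213 in Tdt control. The control libraries of Hdc lay on either side of 3 of the 4 knockout libraries, so the genotypes overlapped on this ratio.

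Mxd1 and Csf3r ranged over 1.55 and 1.60 times. Csf3r had 0.212 and 0.229 reads per read of the pair in Jmjd3 KO, 0.205 and 0.167 in Utx KO, and 0.267 and 0.235 in Tdt control, with separated genotypes. Trem1 left the pattern furthest. It had 0.235 and 0.256 reads per read of the pair in Jmjd3 KO, 0.193 and 0.154 in Utx KO, and 0.374 and 0.319 in Tdt control, so that the highest library was 2.43 times the lowest, against 1.17 times on average between libraries of the same genotype. The mean ratio was 0.710 of the control mean in Jmjd3 KO and 0.501 of it in Utx KO. The Trem1 genotypes did not overlap on this ratio. No test was made over the ratios, since the members were chosen with their values known.

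**Figure D4:**
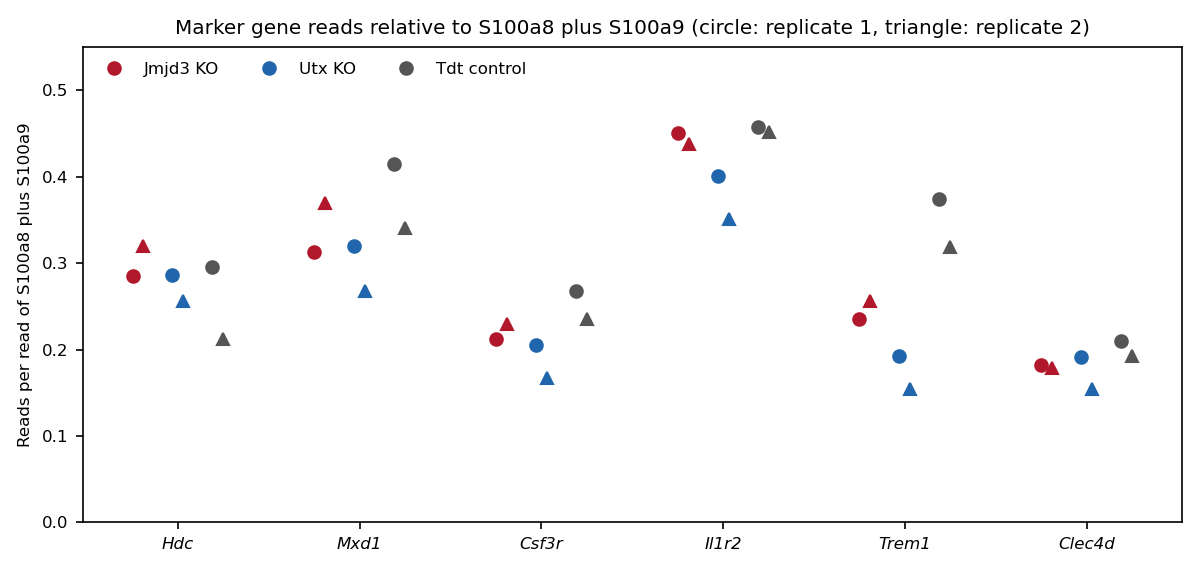
Reads of 6 marker genes per read of S100a8 plus S100a9 in each library, with circles for replicate 1 and triangles for replicate 2, and with Jmjd3 KO left, Utx KO in the middle and Tdt control right within each gene. Values of Il1r2 lie between 0.351 and 0.458, whereas those of Trem1 reach 0.374 in Tdt control and fall to 0.154 in Utx KO.

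Of 20 listed surface and signalling genes, 17 were tested, with a list median log2 fold change of 0.52 in Jmjd3 KO against Tdt control. Of the 17, 3 were called higher there, beside 1.97% of all genes. Among them were the formyl peptide receptor gene Fpr1 (0.81 ± 0.14, adjusted p = 0.0292) and the chemokine gene Cxcl2 (0.52 ± 0.08, adjusted p = 0.0200). Cxcr2 had 10.9 and 7.93 CPM in Jmjd3 KO, 8.33 and 8.25 CPM in Utx KO, and 6.41 and 6.95 CPM in Tdt control, and was not called in either comparison with the control (adjusted p = 0.116 and 0.353). Fpr2, a related receptor gene, had log2 fold changes of 0.88 ± 0.22 and 0.52 ± 0.22 in Jmjd3 KO and Utx KO (adjusted p = 0.0778 and 0.312). In Utx KO edgeR called 0 of the 17 and DESeq2 0, with 4 higher and 2 lower at an unadjusted p under 0.05 and a median of 0.16. At that threshold 7.66% of all genes were higher and 8.54% lower.

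Of 12 granule genes, 7 were tested and 5, Mpo, Elane, Prtn3, Ctsg and Camp, had too few reads. In Jmjd3 KO edgeR called 0 of the 7 and DESeq2 called 1, with 2 higher and 1 lower at an unadjusted p under 0.05. In Utx KO edgeR called 0 of the 7 higher and 1 lower, DESeq2 called 2 lower, and 0 were higher and 4 lower at an unadjusted p under 0.05, with a list median log2 fold change of -0.84. Of all genes, edgeR called 0.925% lower in Utx KO, and 8.54% were lower at the unadjusted threshold. The gene that fell was Chil3, a chitinase-like protein gene transcribed in neutrophils and in macrophages, with 4.65 and 5.24 CPM in Utx KO against 10.8 and 13.7 CPM in Tdt control (log2 fold change -1.30 ± 0.14, adjusted p = 0.0111). Cybb, the gene of a subunit of the oxidase that phagocytes use against microbes, had 2.57 and 3.20 CPM in Utx KO against 4.21 and 6.13 CPM in Tdt control and was not called by edgeR (-0.84 ± 0.19, adjusted p = 0.0925). Ngp, a granule gene with few reads, pointed down in both knockouts. It had 6 and 4 reads in Jmjd3 KO, 3 and 3 in Utx KO, and 22 and 35 in Tdt control. Against Tdt control edgeR gave -2.38 ± 0.50 in Jmjd3 KO (adjusted p = 0.0526) and -2.89 ± 0.55 in Utx KO (adjusted p = 0.0513), and neither passed. Lcn2, Mmp8 and Mmp9 stayed near the control in Utx KO, with log2 fold changes of 0.04 ± 0.16, 0.05 ± 0.27 and -0.02 ± 0.15. The granule sum over 12 genes averaged 53.8 CPM in Jmjd3 KO (SD 5.43, n = 2). It was 31.9 and 39.6 CPM in Utx KO, and 41.7 and 50.3 CPM in Tdt control. Both Utx KO libraries lay below both controls. Divided by the Tdt control mean, the granule sum was 1.255 and 1.088 in Jmjd3 KO against 0.906 and 1.094 in Tdt control. Jmjd3 KO thus overlapped the control, its replicate 2 lying below Tdt control replicate 2. The surface and signalling sum over 20 genes was 316 and 274 CPM in Jmjd3 KO, 191 and 218 CPM in Utx KO, and 194 and 221 CPM in Tdt control, with Utx KO overlapping the control. Most of each sum was Cxcl2 and the interleukin-1 beta gene Il1b. Their log2 fold changes in Utx KO against Tdt control were 0.12 ± 0.08 and -0.175 ± 0.109. Of the 17 surface and signalling genes tested, 11 had positive fold changes there.

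Markers on a list of general leukocyte genes had higher sums in Jmjd3 KO than in Tdt control, as the members did, and lower sums in Utx KO. The list includes Itgam, Fcer1g and Tyrobp, which not all leukocytes transcribe. The leukocyte sum over 10 genes was 267 and 227 CPM in Jmjd3 KO, 160 and 170 CPM in Utx KO, and 172 and 190.0 CPM in Tdt control. The sum of the 8 members was 309 and 239 CPM in Jmjd3 KO, 205 and 233 CPM in Utx KO, and 153 and 165 CPM in Tdt control. The Utx KO libraries were thus above the control for the members' sum and below it for the leukocyte sum. The members' sum divided by the leukocyte sum was 1.16 and 1.06 in Jmjd3 KO, 1.28 and 1.37 in Utx KO, and 0.889 and 0.870 in Tdt control, with separated genotypes.

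Of the 10 leukocyte genes, edgeR called 4 higher in Jmjd3 KO than in Tdt control, beside 1.97% of all genes. Among them were the actin-bundling gene Lcp1 (0.55 ± 0.08, adjusted p = 0.0197), the tetraspanin gene Cd53 (0.59 ± 0.11, adjusted p = 0.0356) and the adaptor gene Tyrobp (0.56 ± 0.11, adjusted p = 0.0460). Ptprc, which encodes the leukocyte phosphatase CD45, had 21.3 and 16.7 CPM in Jmjd3 KO, 12.5 and 14.3 CPM in Utx KO, and 13.6 and 14.4 CPM in Tdt control. It was not called in Jmjd3 KO against Tdt control (0.44 ± 0.12, adjusted p = 0.0992) and was higher in Jmjd3 KO than in Utx KO (0.50 ± 0.12, adjusted p = 0.0480). In Utx KO against Tdt control edgeR and DESeq2 each called 0 of the 10, with 0 higher and 4 lower at an unadjusted p under 0.05. At that threshold 7.66% of all genes were higher and 8.54% lower. Directly between the knockouts, all 10 had positive fold changes in Jmjd3 KO and edgeR called 9 of them higher, beside 5.13% of all genes.

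Macrophage and monocyte markers, 18 genes and all tested, summed to 332 and 302 CPM in Jmjd3 KO, 211 and 240.1 CPM in Utx KO, and 221 and 268 CPM in Tdt control. The list median log2 fold change against Tdt control was 0.14 in Jmjd3 KO, with 12 of the 18 positive, and -0.43 in Utx KO, with 4 positive. In Jmjd3 KO against Tdt control edgeR called 3 of the 18 higher, beside 1.97% of all genes. They were Cd14, which encodes a receptor for bacterial lipopolysaccharide (0.72 ± 0.11, adjusted p = 0.0206), and the C-type lectin genes Clec4n (0.80 ± 0.14, adjusted p = 0.0274) and Clec4e (0.61 ± 0.12, adjusted p = 0.0453). All 3 are also transcribed in neutrophils. Cd14 had 131.6 and 106.1 CPM in Jmjd3 KO against 68.9 and 74.9 CPM in Tdt control. That was more of the difference in the sum than any other gene of the list. Adgre1, which encodes the macrophage antigen F4/80, had 4.59 and 5.28 CPM in Jmjd3 KO, 3.63 and 4.22 CPM in Utx KO, and 4.87 and 6.15 CPM in Tdt control, with no call in any of the 3 comparisons. In Utx KO the Fc receptor gene Fcgr1 fell (-0.79 ± 0.14, adjusted p = 0.0430) and was the 1 of 18 called, with 1 higher and 10 lower at an unadjusted p under 0.05. Of all genes, 0.925% were called lower there, and 7.66% were higher and 8.54% lower at the unadjusted threshold. Clec4e had 31.0 and 27.3 CPM in Utx KO against 18.8 and 20.9 CPM in Tdt control (0.55 ± 0.12, adjusted p = 0.0805).

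Mast cells and basophils are a further source of Hdc. Their 8 markers summed to 3.87 and 3.81 CPM in Jmjd3 KO, 1.40 and 1.99 CPM in Utx KO, and 3.13 and 4.16 CPM in Tdt control. The sum was lower in Utx KO, where Hdc was higher, but it rests on few reads. In Utx KO against Tdt control edgeR called 0 of the 6 tested markers, with 0 higher and 4 lower at an unadjusted p under 0.05. At that threshold 7.66% of all genes were higher and 8.54% lower. Which cells the Hdc reads came from was not tested. The mast cell protease gene Cpa3 had at most 35 reads in a library. Lymphoid markers, 9 genes, summed to between 0.153 and 0.290 CPM, and the eosinophil peroxidase gene Epx was at 0 in all 6 libraries. Fibre transcripts had a sum over 6 genes of 4621 and 4838 CPM in Jmjd3 KO, 3112 and 3764 CPM in Utx KO, and 3463 and 3593 CPM in Tdt control. Of the 6, edgeR called 1 higher in Jmjd3 KO than in Tdt control, beside 1.97% of all genes. It was the fast myosin gene Myh4 (log2 fold change 0.77 ± 0.09, adjusted p = 0.00711), a difference about as large as the members' median of 0.72. All 6 had positive fold changes there, and DESeq2 called 2 higher. In Utx KO edgeR called 1 lower, beside 0.925% of all genes, the fast troponin gene Tnnt3 (-0.33 ± 0.06, adjusted p = 0.0463). Endothelial markers, 6 genes, summed to 43.1 and 54.3 CPM in Jmjd3 KO, 43.2 and 38.0 CPM in Utx KO, and 49.6 and 55.4 CPM in Tdt control, with overlapping knockout and control ranges in Jmjd3 KO. Markers of fibro-adipogenic cells, also 6 genes, summed to 453 and 436 CPM in Jmjd3 KO, 341 and 347 CPM in Utx KO, and 397 and 420 CPM in Tdt control. Most of each sum was Cd34, at 303.5 and 301.2 CPM in Jmjd3 KO, 265.6 and 249.7 CPM in Utx KO, and 286.2 and 298.9 CPM in Tdt control. Between the knockouts edgeR called 4 of the 6 higher in Jmjd3 KO, beside 5.13% of all genes. Against Tdt control it called 0 of the 6 in either knockout, and DESeq2 called 1 higher in Jmjd3 KO and 1 lower in Utx KO. The eosinophil sum over 5 genes lay between 1.08 and 1.38 CPM and that of erythroid and platelet genes, 7 in number, between 27.7 and 35.9 CPM. The part of other cells in the members' values was not tested.

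**Figure D5:**
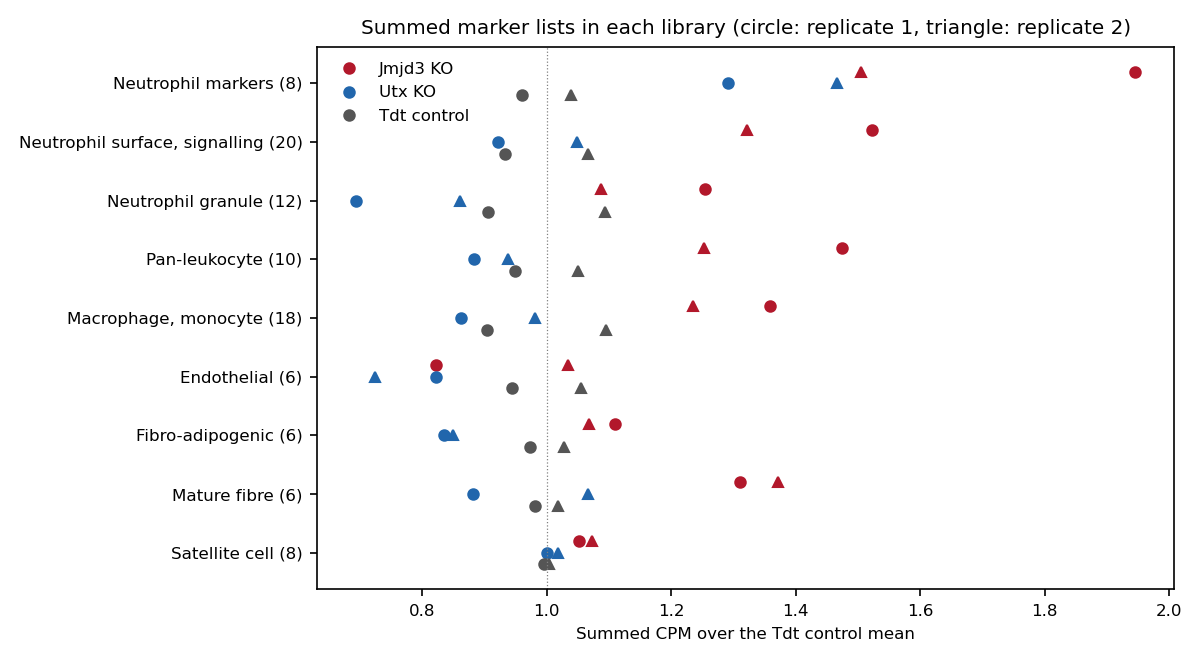
Summed CPM of 9 marker lists in each library divided by the mean of the 2 Tdt control libraries, with the number of genes in brackets, circles for replicate 1 and triangles for replicate 2. Utx KO lies at 1.29 and 1.47 for the neutrophil markers but at 0.884 and 0.939 for the pan-leukocyte list, while Jmjd3 KO lies at 1.95 and 1.51 for the neutrophil markers and at 1.47 and 1.25 for the pan-leukocyte list.

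Genes whose pattern over the 6 libraries was nearest to the mean of the 8 members were found by the root mean square difference of centred log2 CPM, among 11835 genes with a mean of at least 1 CPM. The nearest was Mcemp1, a membrane protein gene of myeloid cells, at 0.06, with 3.55 and 2.56 CPM in Jmjd3 KO, 2.05 and 2.41 CPM in Utx KO, and 1.61 and 1.82 CPM in Tdt control. It was followed by Fpr1 (0.07), Plek, which encodes pleckstrin (0.07), Pik3ip1 (0.07), Bcl2a1b (0.08), Cd14 (0.08), Ifitm1 (0.08), the lactate transporter gene Slc16a3 (0.09), Serpind1 (0.09) and Abat (0.09). The median over all genes compared was 0.34. Bcl2a1b belongs to a family of near-identical genes, so its share of their reads is uncertain. By the same measure the members themselves ran from 0.06 for Il1r2 and Clec4d to 0.13 for S100a9, 0.19 for S100a8, 0.20 for Hdc and 0.30 for Trem1. Each member is part of the mean it was compared with, which draws its value down beside those of other genes.

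The authors' deposited table for Jmjd3 KO against Tdt control called 7 of the 8 members at an adjusted p under 0.05, S100a8 being the exception (0.0696), beside 6.1% of the 14359 genes with an adjusted p there. Trem1 is called in the authors' deposited table, with a log2 fold change of 0.31 and an adjusted p of 0.0313. For Utx KO against Tdt control the authors' deposited table called 2 of the 8, Hdc (0.79, adjusted p = 1.65e-09) and S100a9 (0.62, adjusted p = 3.73e-04), beside 4.21% of 14941 genes. In the authors' deposited table Trem1 in Utx KO had a log2 fold change of -0.17 (adjusted p = 0.198). For S100a8 in Utx KO the authors' deposited table gives a log2 fold change of 0.06 (adjusted p = 0.166), and the file does not say whether its fold changes were shrunken towards 0.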

How the data were processed

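Total RNA of sorted satellite cells was sequenced in 6 libraries, 2 per genotype. Per the submitters' processing notes, the tools were Salmon 1.1.0, cutadapt 2.6 and DESeq2 1.28.1 and the builds mm10 and GRCm38. No source used here gives the annotation release. The deposited quantification files hold estimated counts, TPM and lengths for each transcript, per the file headers. The authors' deposited comparison tables hold p-values, log2 fold changes and a mean normalised signal, per the file headers.

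For each gene, estimated counts of its transcripts in GENCODE M21 (GRCm38), matched by ID without version, were added up and rounded. Transcripts not matched held 0.151% to 0.175% of reads. The quasi-likelihood model of edgeR 4.0.16, run in R 4.3.3, took all 6 libraries together with genotype as its term, TMM scaling and the default low-count filter. Genes were called at a Benjamini-Hochberg adjusted p under 0.05. CPM use the TMM library sizes. Whether replicates are separate animals is not labelled, and p-values then measure the spread between these libraries, which may be technical. The methods were tested on simulated data.

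The members, the 13 gene lists with 123 entries and the rule for named genes were chosen with earlier results of these data known. Named were the 8 members, the first 4 genes of a list and its called genes, up to 4 by p, as far as space allowed, and the 10 nearest genes in pattern, leaving out Gm numbers, Rik clones and pseudogenes. Further genes of a list were named where they carried its sum or stood apart from its median. One called gene of a list is not reported here. The alternatives tried were other normalizations (RLE, upper quartile) and filters, DESeq2 1.42.0, the 4 libraries compared, a replicate block, length offsets and each library left out.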

Additional observations from a re-analysis of the deposited data

How the results depend on the processing

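Relative to the 6, 1 and 3 members called in Jmjd3 KO and Utx KO against Tdt control and between the knockouts, no low-count filter gave 8, 7 and 7, and DESeq2 gave 7, 2 and 4. Transcript length offsets gave 5, 1 and 1. With single libraries left out the counts ran from 2 to 7, 0 to 1 and 0 to 4, and where edgeR called 0, between 5 and 7 members (Utx KO against Tdt control) or 3 (between the knockouts) were at an unadjusted p under 0.05. The counts over all genes, 513, 293 and 1370 of 17084 tested, became 1872, 1399 and 2856 of 31164 tested with no low-count filter. DESeq2 raised the first and second to 1042 and 660 of 13642 tested. Length offsets lowered them to 331, 131 and 793, and the 4 libraries alone lowered the second to 119. With single libraries left out they ran from 113 to 434, 16 to 96 and 291 to 1387. A single library left in a group was assumed to vary like the others.

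The replicate block lowered the first and second counts to 322 and 133 and the members called to 5, 1 and 2. Same-numbered libraries did not deviate together (correlations of -0.0532 to -0.00813 across genes), so the numbers were not taken as pairs. The S100a8 difference between the knockouts ran from -0.27 to 0.25 with single libraries left out and was below 0 when Jmjd3 KO replicate 1 (-0.27) or Utx KO replicate 1 (-0.10) was missing, and the cause was not tested. The other member fold changes kept their direction under all 14 alternatives run on them. With plain library totals, summed CPM moved beyond the replicate spread to 3.90 for mast cell and basophil and 4128 for satellite cell markers in Jmjd3 KO, 35.5 for erythroid and platelet markers in Utx KO, and 1.09 for eosinophil and 3791 for satellite cell markers in Tdt control. The ratios to S100a8 plus S100a9 moved by less than the replicate spread with TPM. With 2 libraries per genotype, calls near the threshold rest on single libraries.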
